A study of Rattus norvegicus with 12 samples.

Results

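The effect of interferon-γ on cultured rat astrocytes was measured on 6 of the 12 arrays of the series, all from cells that carried a control siRNA. They were chosen by their titles alone. The 3 arrays titled IFN-γ -siC, numbered 1, 2 and 3 and called siCon_IFNg here, held RNA of cells given interferon-γ for 3 h. The 3 arrays titled si-con with the same numbers, called siCon here, held RNA of cells for which the titles name no treatment beyond the control siRNA. The treatment text shared by all 12 samples mentions interferon-γ, so that siCon is called untreated from its title alone. Both groups were primary cultures from the cerebral cortex of Sprague-Dawley rats 1 day old, kept in serum-free medium before use to remove microglia and meningeal cells. The other 6 arrays, which also received a compound called GW and carried control siRNA or SHP siRNA, entered only the estimate of the spread. Values are log2 expression for 18166 genes, so that a difference of 1 is a factor of 2, and array values are given in the order of numbers 1, 2 and 3. Nothing in the labels ties an array to its own culture, so the p-values cover array-to-array spread, part of which may be technical. The series text names 4 arrays as taken over from another series without pointing to them.

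Interferon-γ is a cytokine of T cells and natural killer cells that binds a receptor of IFNGR1 and IFNGR2 chains. Through the kinases JAK1 and JAK2 on these chains the signal reaches GAS elements in gene promoters and switches on a first wave of genes, among them the transcription factor IRF1. IRF1 and its relatives bind ISRE elements and carry a second wave, while SOCS proteins shut the kinases down. In astrocytes interferon-γ is known for raising antigen presentation genes and T cell chemokines.

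Number 1 stood apart from numbers 2 and 3, in the array values and in the difference between treatments. This was known from earlier results of these data when number 1 was set against the others, so it is a description. Deviations from the group mean correlated across genes by 0.698 between siCon_IFNg and siCon for number 1, 0.488 for number 2 and 0.498 for number 3. Across different numbers they correlated as much between 2 and 3 (0.516 and 0.491) and negatively between 1 and the others, so only number 1 was separated from the rest. The 3 deviations of a group sum to 0, so the negative sign follows from the positive correlations and is no separate observation. The siCon_IFNg minus siCon differences of numbers 2 and 3 correlated by 0.621 over all genes, those of numbers 1 and 2 by 0.2 and those of numbers 1 and 3 by 0.197. The interferon-inducible GTPase genes had a median of 10.01 on siCon number 1, against 8.33 and 8.12 on numbers 2 and 3. Meningeal, fibroblast and vascular markers had medians of 6.46, 8.69 and 8.77 on the siCon_IFNg arrays and 6.61, 8.72 and 8.87 on the siCon arrays, so both arrays numbered 1 were lower. What set number 1 apart was not tested. Results are therefore given from a fit of group means over the 12 arrays (the unblocked fit), from one with title number as a block (the blocked fit), and from one without the arrays numbered 1. This last fit holds only arrays numbered 2 and 3, so its SE and p-values cover the spread between those numbers alone. Whether these are separate cultures is not stated.

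Astrocytes given interferon-γ had higher Irf1, the transcription factor of the first wave, together with the monocyte chemokine Ccl2, the cytokine Il15, the costimulatory receptor Cd40 and the feedback inhibitor Socs2. Lower were Gadd45a, a growth arrest gene, Bambi, a decoy receptor of the TGF-β family, and 5 others. In the unblocked fit 22 genes changed at an adjusted p under 0.05, 0.121% of the genes tested, with 15 higher (0.0826%) and 7 lower (0.0385%). In the blocked fit 170 changed (0.936%), 108 higher (0.595%) and 62 lower (0.341%), and without number 1 856 did (4.71%), 554 higher (3.05%) and 302 lower (1.66%). All 22 were among the 170 and among the 856, and in all 22 the siCon_IFNg and siCon arrays did not overlap, against 1690 of all genes (9.3%, of which 3.59% higher and 5.71% lower). The call and the overlap use the same arrays, so the lack of overlap is no separate support. The median difference over all genes was -0.03, and 40.1% of genes had a positive one. With each array centred on its median over all rows of the table, 12 were higher and 3 lower, without Ccl2, Socs2, Mir21, Arl11, Bambi, Gpr34 and Nim1k (adjusted p of 0.0527 to 0.127). At an unadjusted p under 0.05, used below only beside counts of 0, 999 genes (5.5%) passed in the unblocked fit (2.81% higher and 2.69% lower), 2168 (11.9%) in the blocked fit (5.14% and 6.79%) and 3171 (17.5%) without number 1 (7.26% and 10.2%).

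The unblocked count rested on single arrays as well. It was 66 without siCon_IFNg number 1, 2 without siCon_IFNg number 2, 2 without siCon_IFNg number 3, 2 without siCon number 2 and 3 without siCon number 3. Irf1 and Hivep1 passed in each of these 5 fits. Without siCon number 1 the count was 33, with 16 of the 22 among them, so it moved less there. Without all arrays of number 2, or of number 3, 0 genes passed by limma (378 and 380 at an unadjusted p under 0.05), and Irf1 differed by 2.86 and 2.79 there. Calls of the blocked fit depended on its form. Of 69 named here 12 passed in a blocked fit of only the 6 arrays. With title number as a random block 24 lost the call (adjusted p of 0.0529 to 0.463). These were Bcl3, Birc3, Btg1, Cmpk2, Csf1, Gbp4, Gbp5, Gch1, Has2, Hcar2, Icam1, Ifih1, Ifit2, Il1a, Nr1d1, Oas1a, Olr1, Pvr, Slfn2, Stat3, Steap4, Tprn, Vcam1 and Zc3h12a, and 0 of the 22 were among them. In fits of only the 6 arrays, however, 5 of the 22 passed with the block and 4 without it.

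Of the 856 genes called without number 1, 557 had a difference of the same sign in number 1, while 187 of those higher were below 0 there and 112 of those lower were above 0.

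**Figure D1:**
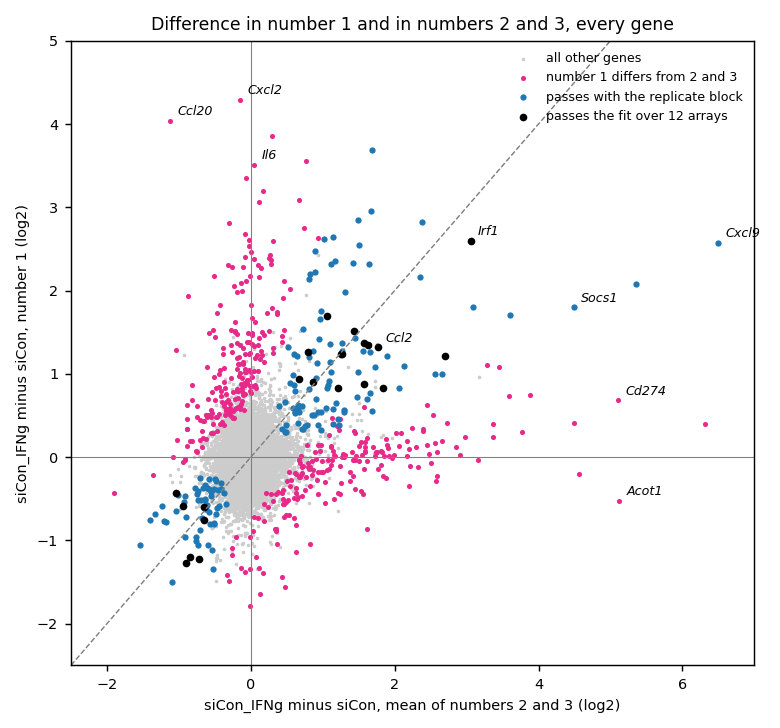
Difference of siCon_IFNg minus siCon (log2) in number 1 (vertical axis) against its mean in numbers 2 and 3 (horizontal axis), 1 point per gene, with the dashed line marking equal differences. Irf1 and Ccl2, in black, lie near the line, Cxcl2, Ccl20 and Il6 lie high at horizontal values near or below 0, and Acot1 and Cd274 lie far to the right with -0.52 and 0.68 in number 1.

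Promoter sequence was examined for genes that were higher in at least 1 of the fits. Only genes that passed in the unblocked fit or belonged to the 38 fixed genes, chosen by name, were taken. The windows are the 250 bases before the RefSeq start site in build GRCr8, all on the + strand. They were searched on both strands for the GAS letters TTCNNNGAA and the ISRE-like letters, GAAA and GAAA parted by any 2 bases. Of 28 such genes examined that have a window, 14 held a match, and the 6 with the largest differences are shown because they include the chemokines, the transcription factors, the feedback inhibitor and the GTPase that the results turn on. As the genes were picked, 14 of 28 is not the share among all genes that rose. Capitals mark the matches. In Socs1 the 2 ISRE-like matches overlap, so that they read as 1 capital run.
Cxcl11 (chr14:15973478-15973727): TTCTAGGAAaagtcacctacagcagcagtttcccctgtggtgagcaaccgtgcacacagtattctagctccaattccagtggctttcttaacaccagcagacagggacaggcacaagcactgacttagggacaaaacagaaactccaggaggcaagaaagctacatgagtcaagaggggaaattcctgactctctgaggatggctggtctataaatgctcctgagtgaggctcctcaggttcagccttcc
Socs1 (chr10:5389324-5389573): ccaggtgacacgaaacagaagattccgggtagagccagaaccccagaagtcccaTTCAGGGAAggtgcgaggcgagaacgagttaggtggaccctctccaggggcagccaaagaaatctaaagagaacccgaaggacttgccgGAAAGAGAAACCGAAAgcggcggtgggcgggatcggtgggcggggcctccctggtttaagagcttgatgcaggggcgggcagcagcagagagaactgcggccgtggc
Cxcl10 (chr14:15988816-15989065): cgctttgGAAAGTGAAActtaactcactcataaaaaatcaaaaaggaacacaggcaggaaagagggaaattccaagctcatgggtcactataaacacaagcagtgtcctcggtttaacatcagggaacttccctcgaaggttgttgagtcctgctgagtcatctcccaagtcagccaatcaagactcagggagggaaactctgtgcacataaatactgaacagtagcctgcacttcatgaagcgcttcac
Irf1 (chr10:38417685-38417934): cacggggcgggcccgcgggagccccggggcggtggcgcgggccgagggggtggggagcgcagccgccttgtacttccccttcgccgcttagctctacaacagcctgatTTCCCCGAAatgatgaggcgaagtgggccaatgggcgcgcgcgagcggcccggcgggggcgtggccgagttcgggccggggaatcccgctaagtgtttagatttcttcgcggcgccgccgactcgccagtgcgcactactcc
Irf8 (chr19:65699034-65699283): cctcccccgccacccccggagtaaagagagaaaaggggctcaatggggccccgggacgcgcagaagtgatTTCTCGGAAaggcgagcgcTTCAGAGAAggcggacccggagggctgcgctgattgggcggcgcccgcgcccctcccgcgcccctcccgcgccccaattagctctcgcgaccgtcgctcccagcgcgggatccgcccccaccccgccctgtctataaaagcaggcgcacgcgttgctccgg
Igtp (chr10:42874797-42875046): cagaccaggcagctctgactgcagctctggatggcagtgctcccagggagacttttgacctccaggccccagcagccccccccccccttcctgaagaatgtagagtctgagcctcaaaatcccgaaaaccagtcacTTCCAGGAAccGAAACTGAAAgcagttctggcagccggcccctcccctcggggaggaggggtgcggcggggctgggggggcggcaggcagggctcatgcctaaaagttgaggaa

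The GAS match of Irf1, TTCCCCGAA, began 142 bases before the start site. That of Cxcl11, TTCTAGGAA, lay at the far end of its window, and Irf8 held 2, TTCTCGGAA and TTCAGAGAA. Igtp and Socs1 held both kinds of letters. Cxcl10 held the ISRE-like GAAAGTGAAA, beginning 243 bases before the start, and Cxcl9 held neither. A match is a description of the letters and not evidence of a bound site. Over all 27457 promoters in the RefSeq table, 7.52% held the GAS letters and 3.29% the ISRE-like letters, and over the 14503 genes of the array with a window 9.51% held either. Among genes higher in the blocked fit 15.7% of 83 held GAS letters, 8.43% ISRE-like letters and 21.7% either. Among those lower 0 of 52 held either. Without number 1 either was held by 19.7% of 431 genes higher and 6.91% of 246 lower. Of the genes whose difference was lower in number 1 than in numbers 2 and 3, 27.2% of 169 held either, against 6.38% of 188 for those whose difference was higher in number 1.

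Genes of the receptor and its kinases were expressed in both groups, and Jak2 and Stat3 rose in the blocked fit. Of 11 measured receptor, JAK and STAT genes 0 changed in the unblocked fit (2 higher at an unadjusted p under 0.05), 2 rose in the blocked fit and 4 without number 1, and the list median was 0.27. Jak2, the kinase bound to the IFNGR2 chain, had 9.99, 9.54 and 9.33 on the siCon_IFNg arrays, against 9.17, 8.39 and 8.37 on the siCon arrays. Every siCon_IFNg array lay above every siCon array, and within each number the rise was close to 1 (0.83, 1.15 and 0.95, blocked SE 0.11, blocked adjusted p = 0.00349). Stat3, which carries signals of the interleukin-6 family, rose by 0.59 ± 0.11 in the blocked fit (SE, adjusted p = 0.0348). Stat2, which acts in the response to type I interferons, differed by 0.03, 1.36 and 1.22 in numbers 1, 2 and 3, and with Stat5b, a STAT of growth hormone and cytokine receptors, it made up the 4 that rose without number 1 (1.29 and 0.50). For Ifngr1, the ligand-binding chain, the difference was -0.19 ± 0.18 (SE, adjusted p = 1), and for Jak1 0.05 ± 0.08 (adjusted p = 1).

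Irf1 rose in all 3 numbers. Its values were 11.90, 11.70 and 11.73 in siCon_IFNg, against 9.30, 8.71 and 8.60 in siCon. The lowest treated array was above the highest untreated one by more than 2 units, and the siCon_IFNg arrays lay closer together than the siCon arrays. The difference was 2.60, 2.99 and 3.13 within the numbers, and number 1 was not called different from the others (adjusted p = 0.272). Over the 14 measured interferon regulatory factors and partners the median difference was 0.90; Irf1 passed in the unblocked fit, Irf1 and Ciita in the blocked fit, and 9 without number 1, all higher.

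Other factors of that list followed numbers 2 and 3. Irf8, a partner of IRF1 best known from myeloid cells, had 7.95, 10.44 and 10.39 in siCon_IFNg, against 6.87, 7.13 and 6.79 in siCon. The groups did not overlap, but array 1 of the treated group lay more than 2 units below its fellows. Its difference without number 1 was 3.45 ± 0.11 (SE, adjusted p = 4.85e-06), and the difference in number 1 was lower by 2.37 (SE 0.20, adjusted p = 0.00119). Nlrc5, the transactivator of MHC class I genes, had 7.36, 8.63 and 8.31 in siCon_IFNg and 7.19, 6.12 and 5.69 in siCon, with 2.56 without number 1 (adjusted p = 1.61e-04). Irf9, a part of the type I interferon complex ISGF3, differed by -0.03 in number 1 but by 1.11 and 1.16 in the others. Ciita, the transactivator of MHC class II genes, was near background, with 5.31, 6.04 and 6.11 in siCon_IFNg, against 4.75, 4.89 and 4.68 in siCon. All siCon arrays were below the background level of 5.34, the 95th percentile of olfactory and vomeronasal receptor genes, so Ciita was at least 1.40-fold higher (blocked adjusted p = 0.029). Batf2, an AP-1 factor that pairs with IRFs, had 6.54, 7.76 and 7.17 in siCon_IFNg and 6.23, 5.79 and 6.04 in siCon, and passed without number 1 (1.55, adjusted p = 0.00221).

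Feedback inhibitors rose as well, in part. Of 14 measured members, with a median of 0.19, 1 rose in the unblocked fit (Socs2), 3 in the blocked fit (Socs1, Socs2 and Cish) and 6 without number 1. Socs2, known for restraining growth hormone signalling, had 7.93, 8.02 and 7.79 in siCon_IFNg, against 6.58, 6.30 and 6.24 in siCon. Its arrays separated by more than 1 unit, and its differences of 1.35, 1.72 and 1.55 were alike across numbers. The difference was 1.54 ± 0.24 (SE, adjusted p = 0.0456). Cish, a relative that acts on STAT5 signalling, had 7.54, 7.36 and 7.60 in siCon_IFNg and 6.27, 5.82 and 6.03 in siCon (blocked 1.46 ± 0.21, SE, adjusted p = 0.0118). Socs1, the main inhibitor of JAK1 and JAK2 under interferon-γ, was at 8.59, 10.90 and 10.82 in siCon_IFNg, against 6.79, 6.29 and 6.45 in siCon. Treated array 1 lay more than 2 units below treated arrays 2 and 3, while the untreated arrays lay within 1 unit. The rise was 1.80 in number 1 and 4.61 and 4.37 in the others (number test adjusted p = 0.00641). Ptpn1, a phosphatase of JAK2, and Usp18, a protease that removes ISG15, passed without number 1, by 1.20 and 2.30.

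The CXCR3 ligands, which attract activated T cells, had the largest median of the 31 lists, 4.26 over 3 genes, and all 3 rose in the blocked fit. In the unblocked fit 0 of the 3 passed by limma, although all 3 had an unadjusted p under 0.05. Cxcl9 was at 9.61, 12.20 and 11.64 in siCon_IFNg, against 7.04, 5.47 and 5.37 in siCon. Its untreated arrays 2 and 3 were just above background, whereas untreated array 1 was higher by more than 1 unit and treated array 1 was the lowest of its group. Cxcl11 had 10.54, 11.53 and 11.09 in siCon_IFNg and 8.47, 6.13 and 5.78 in siCon. Cxcl10 had 12.22, 12.50 and 12.15 in siCon_IFNg and 10.52, 8.86 and 8.59 in siCon. For Cxcl10 the 3 treated arrays were alike, and the smaller difference in number 1 (1.71, against 3.64 and 3.56) came with a higher untreated array. Without number 1 the differences were 6.50 ± 0.18 for Cxcl9, 5.36 ± 0.18 for Cxcl11 and 3.60 ± 0.14 for Cxcl10 (SE, adjusted p = 4.85e-06, 5.24e-06 and 7.09e-06).

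**Figure D2:**
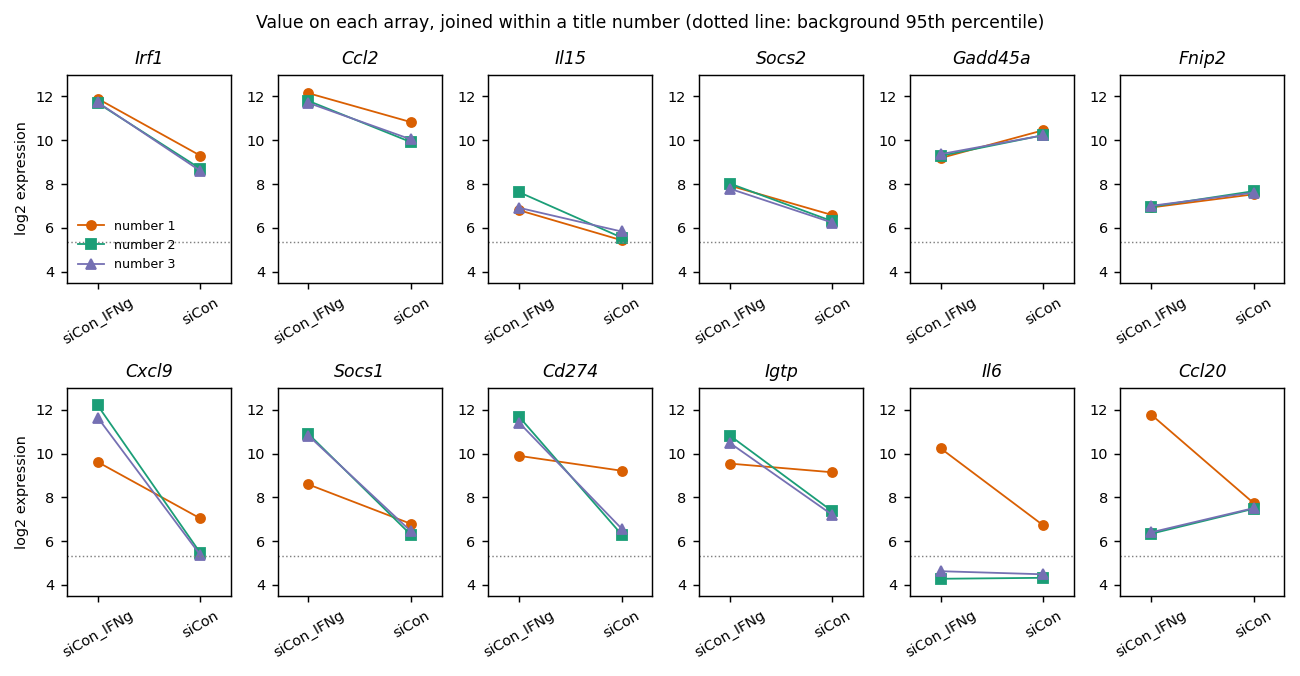
Log2 expression of 12 genes on each array, with siCon_IFNg left of siCon, lines joining the arrays of 1 title number, and a dotted line at the background level of 5.34. In the upper row Irf1, Ccl2, Il15, Socs2, Gadd45a and Fnip2 have nearly parallel lines, while in the lower row the line of number 1 is flatter for Cxcl9, Socs1, Cd274 and Igtp and steeper for Il6 and Ccl20.

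Among 19 other chemokines the 3 that rose in the blocked fit were Ccl2, Ccl7 and Cx3cl1, and 1 of them, Ccl2, passed in the unblocked fit. Ccl2, which attracts monocytes, had 12.15, 11.80 and 11.70 in siCon_IFNg, against 10.83, 9.91 and 10.04 in siCon. The lowest treated array was above the highest untreated one, and the difference of 1.62 ± 0.21 (SE, adjusted p = 0.025) was 1.32, 1.88 and 1.67 within the numbers. Ccl7, a related monocyte chemokine, had 11.52, 10.95 and 10.71 in siCon_IFNg and 9.71, 7.66 and 7.81 in siCon (blocked adjusted p = 0.023). Cx3cl1, fractalkine, whose receptor is on microglia, had 11.79, 10.53 and 10.60 in siCon_IFNg and 9.25, 8.92 and 9.20 in siCon, with a larger difference in number 1 (2.54) than in the others (1.62 and 1.40, number test adjusted p = 0.0303). Ccl12 joined them without number 1 (2.46, adjusted p = 1.21e-04), where Ccl20, Ccl3 and Ackr3, a scavenging chemokine receptor, fell by 1.12, 1.03 and 0.72. The list median was 0.73, 0.11 and -0.03 in numbers 1, 2 and 3.

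Molecules that astrocytes present to T cells split into those alike in all numbers and those that were not. Of 15 costimulation, checkpoint and adhesion genes Cd40 rose in the unblocked fit, and Cd40, Vcam1, Icam1 and Pvr in the blocked fit. Cd40 had 7.68, 7.17 and 7.07 in siCon_IFNg, against 5.99, 6.26 and 5.86 in siCon, without overlap and with a difference of 1.27 ± 0.16 (SE, adjusted p = 0.025). Vcam1, an adhesion molecule for leukocytes, had 12.15, 10.99 and 10.58 in siCon_IFNg and 10.77, 9.59 and 9.44 in siCon. The groups overlapped, since untreated array 1 exceeded treated array 3, but each number rose by a like amount (1.38, 1.40 and 1.14, blocked adjusted p = 0.00716). Icam1, another leukocyte adhesion molecule, rose more in number 1 (2.13) than in numbers 2 and 3 (0.87 and 0.76, number test adjusted p = 0.0112). So did Pvr (2.32, against 1.19 and 1.04, adjusted p = 0.0227), a ligand of T cell and natural killer cell receptors. Cd274, the inhibitory ligand PD-L1, was the reverse, with 9.89, 11.68 and 11.41 in siCon_IFNg and 9.21, 6.30 and 6.57 in siCon. Untreated array 1 held nearly as much Cd274 as treated array 1, and the differences were 0.68, 5.38 and 4.84.

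Of 28 cytokine, receptor and death ligand genes, with a median of 0.51, Il15 rose in the unblocked fit and Il15, Il1a and Csf1 in the blocked fit. Il15, a growth factor of natural killer and memory T cells, had 6.80, 7.63 and 6.91 in siCon_IFNg, against 5.43, 5.56 and 5.83 in siCon, and the differences of 1.37, 2.07 and 1.08 gave 1.51 ± 0.21 (SE, adjusted p = 0.025). Il1a, an inflammatory alarm cytokine, had 11.36, 8.33 and 8.13 in siCon_IFNg and 8.54, 5.95 and 5.76 in siCon. Each array numbered 1 was more than 2 units above the others of its group, so the groups overlapped, while the within-number rises of 2.82, 2.38 and 2.37 were close (blocked adjusted p = 0.0481). Csf1, the growth factor of microglia and macrophages, rose by 1.0 ± 0.16 in the blocked fit (SE, adjusted p = 0.0204). Tnfsf10, the death ligand TRAIL, had 6.02, 8.14 and 7.79 in siCon_IFNg, against 6.05, 4.90 and 4.70 in siCon, so it was flat in number 1 and about 3 units higher in numbers 2 and 3 (3.16 ± 0.17 without number 1, SE, adjusted p = 4.58e-05). Casp8, the caspase that death receptors activate, passed without number 1 with 0.66 (adjusted p = 0.00588).

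The interferon-inducible GTPases, which act on membranes of pathogen vacuoles, and the antiviral genes were positive as lists but varied with the number. All 11 GTPases had a positive difference, with a median of 1.95; 0 passed by limma in the unblocked fit (7 at an unadjusted p under 0.05), 2 in the blocked fit (Gbp4 and Gbp5) and 11 without number 1. Members of this family are similar in sequence, and whether the probes of one also measured another was not tested. Gbp5 had 11.98, 11.48 and 11.18 in siCon_IFNg, against 10.98, 8.75 and 8.59 in siCon. Untreated array 1 lay more than 2 units above untreated arrays 2 and 3, while the treated arrays lay within 1 unit. Gbp4 rose by 1.31 ± 0.26 in the blocked fit (SE, adjusted p = 0.0498). Igtp, whose promoter is shown above, had 9.54, 10.82 and 10.48 in siCon_IFNg and 9.14, 7.36 and 7.20 in siCon, with differences of 0.40, 3.46 and 3.29. The medians of the list in numbers 1, 2 and 3 were 0.40, 2.82 and 2.38, and 9 of the 11 had a lower difference in number 1.

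Antiviral effectors followed the same order of numbers. Of 20 measured, with a median of 0.69, 0 passed by limma in the unblocked fit (4 higher and 1 lower at an unadjusted p under 0.05), 3 rose in the blocked fit (Ifit2, Cmpk2 and Slfn2) and 12 without number 1. Cmpk2, a mitochondrial nucleotide kinase, had 10.94, 10.71 and 10.48 in siCon_IFNg, against 9.95, 8.26 and 7.83 in siCon (blocked adjusted p = 0.0217). Ifit2, which binds RNA and restrains translation, had 11.69, 10.34 and 9.88 in siCon_IFNg and 10.86, 8.18 and 7.91 in siCon, and Slfn2 rose by 1.12 in the blocked fit (adjusted p = 0.00816). Rsad2, viperin, had 12.17, 11.67 and 11.49 in siCon_IFNg and 11.42, 8.0 and 7.39 in siCon. Its untreated arrays spanned 4 units, with array 1 the highest, and the treated arrays less than 1. Samhd1, which depletes nucleotides, was at 7.60, 9.20 and 8.92 in siCon_IFNg and 7.46, 6.69 and 6.52 in siCon, and passed without number 1 (2.45, adjusted p = 3.51e-05).

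Of 13 OAS genes and nucleic acid sensors, with a median of 1.00, 0 passed by limma in the unblocked fit (2 at an unadjusted p under 0.05), 2 in the blocked fit and 10 without number 1, all higher. The 2 were Oas1a, a synthase of the messenger that activates RNase L, with 0.54, 0.86 and 0.47 in the numbers, and Ifih1, the RNA sensor MDA5, with 0.73, 1.45 and 1.51. Sting1, the adaptor of DNA sensing, differed by -0.51 in number 1 and by 1.0 and 1.32 in the others. The 10 genes of ISG15 conjugation and interferon-linked PARPs were all positive, with a median of 1.29; 0 passed in the unblocked fit and 0 in the blocked fit by limma (5 and 8 at an unadjusted p under 0.05), and 7 rose without number 1. Parp14, an ADP-ribosyltransferase, had 9.81, 10.92 and 10.68 in siCon_IFNg, against 9.50, 8.49 and 8.32 in siCon. The groups did not overlap, and number 1 differed by 0.31 where the others differed by 2.43 and 2.36. Isg15 itself, a ubiquitin-like modifier, had 11.11, 10.21 and 9.81 in siCon_IFNg and 10.92, 8.09 and 7.58 in siCon.

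The measured genes of the MHC class I and class II lists had no call in the unblocked or the blocked fit. The class I genes RT1-A1, RT1-A2 and RT1-CE1 were listed but not measured. For the 17 class I, loading and immunoproteasome genes the median was 0.24; 0 passed in the unblocked and 0 in the blocked fit by limma (2 and 5 higher at an unadjusted p under 0.05), and 8 rose without number 1. Tap1, a subunit of the peptide transporter, had 9.46, 10.11 and 10.05 in siCon_IFNg, against 8.95, 7.55 and 7.54 in siCon, with differences of 0.51, 2.56 and 2.51. Psmb9, an immunoproteasome subunit, differed by 0.02 in number 1, where both arrays were near the level of treated arrays 2 and 3, and by 1.16 and 1.17 in the others. B2m, the light chain of class I, was near the top of the scale in both groups (13.26, 12.84 and 12.69 in siCon_IFNg, against 13.23, 12.74 and 12.55 in siCon) and differed by 0.09 ± 0.21 (SE, adjusted p = 1). Of the 13 class II genes 0 passed by limma in any of the 3 fits, with 0 at an unadjusted p under 0.05 in each, and the median was -0.09. Cd74, the invariant chain, had 9.75, 8.42 and 8.46 in siCon_IFNg and 10.14, 8.53 and 8.33 in siCon, overlapping, with the arrays numbered 1 highest in both groups.

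**Figure D3:**
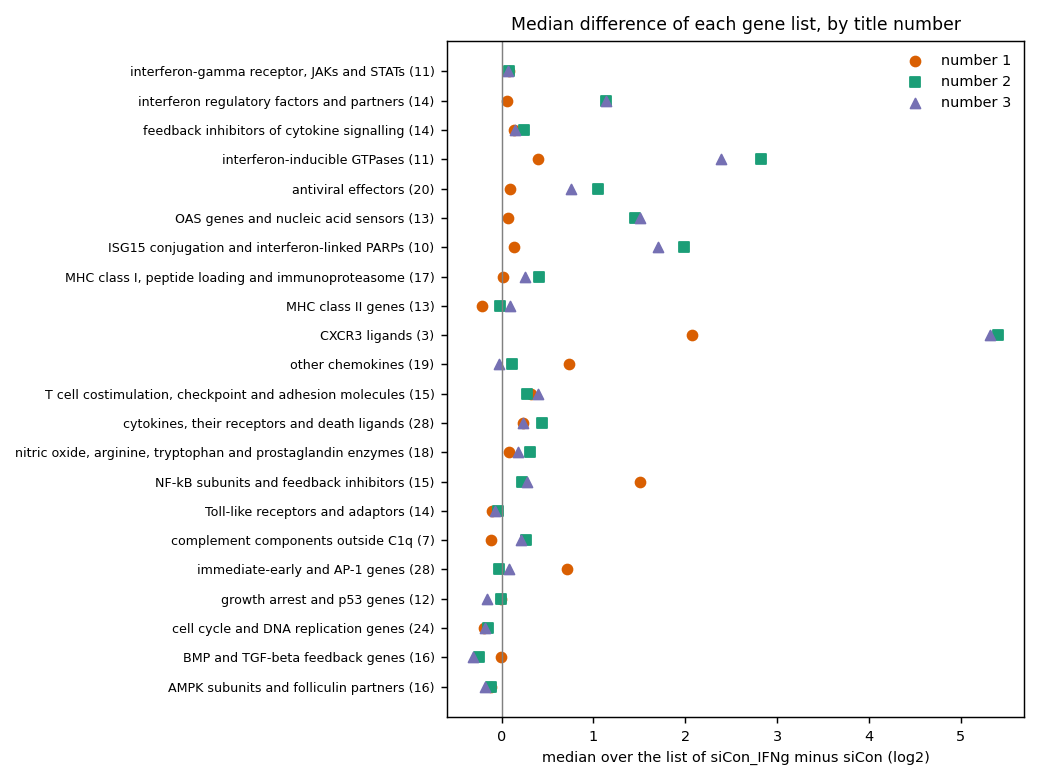
Median of siCon_IFNg minus siCon (log2) over each gene list, by title number, with the number of measured genes in brackets. The CXCR3 ligands, GTPases, antiviral, OAS and ISG15 lists lie lower in number 1 than in numbers 2 and 3, and the NF-kB, immediate-early and other chemokine lists lie higher in number 1.

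Of 18 nitric oxide, arginine, tryptophan and prostaglandin enzymes 0 passed by limma in the unblocked fit (4 at an unadjusted p under 0.05), and Gch1, which makes the cofactor of nitric oxide synthases, rose in the blocked fit by 1.0 ± 0.14 (SE, adjusted p = 0.0116). Nos2, the inducible nitric oxide synthase, had 8.14, 5.99 and 5.85 in siCon_IFNg, against 5.51, 5.10 and 4.89 in siCon. The treated arrays 2 and 3 were within 1 unit of background and treated array 1 was well above it (number test adjusted p = 0.00656). Ido1, the first enzyme of tryptophan breakdown, stayed near background, with 4.14, 5.47 and 4.52 in siCon_IFNg and 4.05, 3.96 and 4.07 in siCon. Wars1, the tryptophan tRNA synthetase, differed by 0.02 in number 1 and by 1.70 and 1.23 in the others. Ptgs2, cyclooxygenase 2, was the opposite, with 2.59 in number 1, against 0.43 and 0.19.

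NF-κB subunits and inhibitors were higher in number 1 above all. Of 15 genes, all with a positive difference and a median of 0.64, 0 passed by limma in the unblocked fit (3 at an unadjusted p under 0.05), while Bcl3, Birc3 and Zc3h12a rose in the blocked fit. Their differences in numbers 1, 2 and 3 were 2.20, 0.94 and 0.70 for Bcl3, a co-regulator of NF-κB. For Birc3, an inhibitor of cell death, they were 2.48, 0.99 and 0.80, and for Zc3h12a, an RNase that removes inflammatory mRNAs, 1.75, 0.98 and 0.96. The list had medians of 1.51, 0.23 and 0.28, and 11 of the 15 had a higher difference in number 1. Of 14 Toll-like receptors and adaptors, median 0.005, 0 passed in the unblocked or the blocked fit by limma (2 higher at an unadjusted p under 0.05 in each, and 2 lower in the blocked one). Without number 1 Myd88 (1.12), Tlr6 (0.95) and Tlr3 (0.74) rose. Of 7 complement genes Cfb and Serping1 rose there and C3ar1 and Cd55 fell (0.84, 0.85, -1.36 and -0.50), and 0 passed in the other fits by limma (0 at an unadjusted p under 0.05 in the unblocked one). Among 7 interferon genes 0 passed in any of the 3 fits by limma (1 at an unadjusted p under 0.05 without number 1, 0 in the others). Ifng was below background in both groups, and Ifnb1 was above it on treated array 1 alone (8.35, 4.74 and 4.76 in siCon_IFNg, against 5.0, 4.90 and 4.72 in siCon).

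Hivep1 and Klf6, transcription factors outside the interferon family, rose in the unblocked fit. Hivep1, a zinc finger protein that binds NF-κB-like sites, had 9.36, 9.55 and 9.36 in siCon_IFNg, against 8.12, 8.07 and 8.32 in siCon. The groups were separated by about 1 unit, and the arrays of each lay close together, and the adjusted p was the lowest of all genes together with that of Irf1 (1.25 ± 0.09, SE, adjusted p = 7.06e-04). Klf6, an immediate-early zinc finger factor, had 10.46, 10.09 and 10.16 in siCon_IFNg and 9.22, 8.76 and 8.99 in siCon, with differences of 1.24, 1.32 and 1.18 (adjusted p = 0.025). It was the 1 of 28 immediate-early and AP-1 genes that passed in the unblocked fit. With it, Jun (0.95 ± 0.19, SE, adjusted p = 0.049) and Atf3 (1.03 ± 0.17, SE, adjusted p = 0.0242), an AP-1 subunit and a stress factor of the same dimer family, rose in the blocked fit, and 5 rose and 2 fell without number 1. The median of the list was 0.72 in number 1, against -0.02 and 0.08 in numbers 2 and 3, and 8 members had a higher difference in number 1.

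The other rises in the unblocked fit were in genes of varied roles. Themis2, an adaptor of B cell and macrophage signalling, had 7.56, 8.42 and 8.20 in siCon_IFNg, against 6.35, 5.68 and 5.54 in siCon. It did not overlap between groups, and it was the 1 of the 22 whose difference in number 1 was called lower than in numbers 2 and 3 (1.21, against 2.74 and 2.66, adjusted p = 0.00424). Prkaa2, a catalytic subunit of the energy sensor AMPK, had 9.12, 9.67 and 9.48 in siCon_IFNg and 8.25, 7.94 and 8.06 in siCon. S1pr3, a receptor for sphingosine-1-phosphate listed among reactive astrocyte genes, had 10.98, 10.81 and 10.93 in siCon_IFNg and 9.71, 9.91 and 10.25 in siCon. Spsb1, a SOCS box protein that marks inducible nitric oxide synthase for degradation, rose by 1.09 ± 0.15 (SE, adjusted p = 0.025). The ubiquitin ligase Rnf19a rose by 0.76 and the circadian enzyme Noct by 1.46, with within-number differences for Noct of 1.52, 1.39 and 1.48. C11h3orf38 rose by 0.83, 1.95 and 1.74 in the numbers.

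The Mir21 locus, which encodes the microRNA miR-21, rose with little spread. Its row had 7.91, 7.76 and 7.93 in siCon_IFNg, against 7.0, 6.87 and 7.08 in siCon, and the differences were 0.91, 0.89 and 0.85 (0.88 ± 0.14, SE, adjusted p = 0.0404). The row does not tell the mature forms from their precursor or from overlapping transcripts. The mature sequences in RefSeq, build GRCr8, both on the - strand, are shown with the seed, bases 2 to 8, in capitals because the seed sets which mRNAs each arm pairs with, and the arms share no seed.
rno-miR-21-5p (chr10:71902653-71902674): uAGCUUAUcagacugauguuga
rno-miR-21-3p (chr10:71902615-71902636): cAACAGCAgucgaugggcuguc

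**Figure D4:**
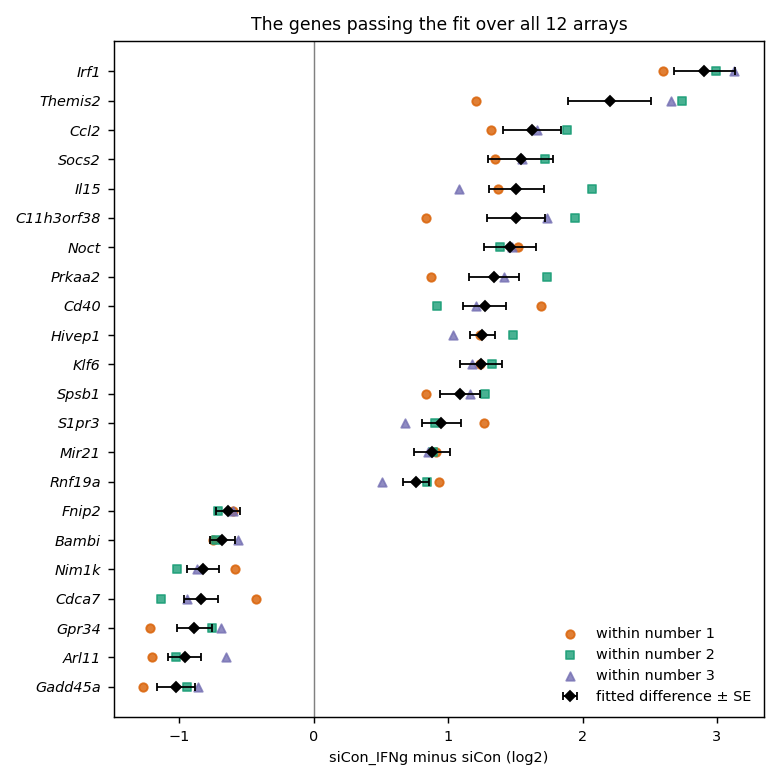
Fitted difference of siCon_IFNg minus siCon (log2, black, with SE bars) and the differences within numbers 1, 2 and 3 for the 22 genes that passed in the unblocked fit. All within-number points lie on the same side of 0 as the fitted difference, from 3.13 for Irf1 in number 3 to -1.27 for Gadd45a in number 1.

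The 7 genes that fell in the unblocked fit had smaller changes than most of the rises. Gadd45a, a sensor of DNA damage and growth arrest, had 9.18, 9.29 and 9.36 in siCon_IFNg, against 10.45, 10.23 and 10.22 in siCon, with a difference of -1.02 ± 0.14 (SE, adjusted p = 0.025). No treated array reached an untreated one. Its relative Gadd45b differed by 2.02, 0.53 and 0.57 in the numbers and rose without number 1 (0.55). Of the 12 growth arrest and p53 genes Plk2, a stress kinase, and Btg1, an antiproliferative factor, rose in the blocked fit by 1.20 and 0.54 (adjusted p = 0.008 and 0.0381).

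Bambi, which blunts TGF-β and BMP signals, had 6.64, 6.47 and 6.54 in siCon_IFNg, against 7.39, 7.20 and 7.10 in siCon (-0.68 ± 0.09, SE, adjusted p = 0.025). Of 16 BMP and TGF-β feedback genes, with a median of -0.19, it fell in the unblocked fit, and Bambi and Id2 in the blocked fit. Id2 and its relatives Id1 and Id4 are BMP-induced inhibitors of differentiation factors. Id2 was below background in all treated arrays and at least 1.36-fold lower (blocked adjusted p = 0.0137). Without number 1 6 members fell, among them Id1 (-0.60) and Id4 (-0.92), and Nog, a secreted BMP inhibitor, rose (0.86).

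AMPK partners went in different directions. Prkaa2 rose, as given above, whereas Fnip2, a folliculin partner that binds AMPK, and Nim1k, an AMPK-related kinase, fell. Fnip2 had 6.93, 6.96 and 7.01 in siCon_IFNg, against 7.53, 7.67 and 7.60 in siCon, with the smallest SE of the 7 (-0.64 ± 0.09, SE, adjusted p = 0.025). Nim1k had 6.26, 6.09 and 6.13 in siCon_IFNg and 6.85, 7.10 and 7.0 in siCon (adjusted p = 0.0266). Over the 16 genes of that list the median was -0.11, and Ddit4, an inhibitor of mTOR signalling, joined those lower without number 1 (-1.12, adjusted p = 0.00355), while Ulk1, a kinase that starts autophagy, joined those higher (0.54).

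Cdca7, which takes part in DNA methylation and is linked to the cell cycle, had 5.52, 5.27 and 5.41 in siCon_IFNg, against 5.95, 6.40 and 6.36 in siCon (-0.84 ± 0.13, SE, adjusted p = 0.0379). It was the only one of 24 cell cycle and replication genes to pass in any of the 3 fits. Of the 24, 23 had a negative difference, with a median of -0.17 against -0.03 over all genes. Arl11, a small GTPase, had 7.38, 7.29 and 7.39 in siCon_IFNg and 8.58, 8.31 and 8.04 in siCon (adjusted p = 0.025). Gpr34, a lysophospholipid receptor of microglia, had 6.75, 7.04 and 6.93 in siCon_IFNg and 7.97, 7.79 and 7.62 in siCon, with differences of -1.22, -0.76 and -0.69 (adjusted p = 0.0379). In bulk RNA of this kind fewer cells of a type and less RNA per cell cannot be told apart.

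Further genes rose in the blocked fit by more than most of the 22. Rgs16, which ends G protein signals, had 9.92, 10.28 and 10.18 in siCon_IFNg, against 7.76, 7.75 and 8.02 in siCon. The groups were apart by nearly 2 units and the numbers alike, with an unblocked adjusted p of 0.0887 and a blocked one of 0.0306. The scavenger receptor gene Olr1 had 10.33, 7.53 and 7.45 in siCon_IFNg and 6.64, 5.96 and 5.66 in siCon. Hcar2, a receptor for niacin and ketone bodies, had 10.17, 7.31 and 7.05 in siCon_IFNg and 7.21, 5.52 and 5.49 in siCon. Has2, which makes hyaluronan, had 10.11, 7.41 and 7.36 in siCon_IFNg and 7.26, 5.71 and 6.09 in siCon. These 3 were higher on each array numbered 1 than on the others of its group and had their largest difference there. All 3 passed in the blocked fit (adjusted p = 0.0109, 0.00545 and 0.008). Tnfsf15, a T cell costimulating cytokine, rose by 2.32, 1.56 and 1.74 in the numbers (blocked adjusted p = 0.00208).

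Falls in the blocked fit reached -1.38 for Evi2a, with 7.79, 6.84 and 6.83 in siCon_IFNg, against 8.85, 8.54 and 8.21 in siCon. Rasd1, a glucocorticoid-induced Ras relative, fell by 1.23 and Fbxo32, a ubiquitin ligase of muscle wasting, by 1.19. Prag1, a pseudokinase, had 8.68, 8.11 and 8.12 in siCon_IFNg and 9.45, 9.28 and 9.37 in siCon, without overlap (unblocked adjusted p = 0.0523, blocked 0.00208). Nr1d1, the clock repressor REV-ERBα, had 9.70, 7.60 and 7.59 in siCon_IFNg and 10.48, 8.75 and 8.79 in siCon. Both arrays numbered 1 were about 2 units higher than the rest, so the groups overlapped although each number fell (-0.77, -1.15 and -1.20, blocked adjusted p = 0.0207). Apobec1, the editing enzyme of apolipoprotein B mRNA, fell by 0.96, 0.92 and 0.92 in the numbers (blocked adjusted p = 0.00683). Bmf, a cell death gene of the BCL2 family, fell by 0.84 and Rreb1, a zinc finger factor downstream of Ras, by 0.90.

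The difference between siCon_IFNg and siCon was itself unlike in number 1. By a fit with separate means for number 1, 441 genes (2.43%) had another difference there than in numbers 2 and 3, 233 higher (1.28%) and 208 lower (1.14%). This sets 1 array per group against 2, takes the spread from numbers 2 and 3 and assumes that the lone arrays vary like them. Number 1 was singled out with earlier results of these data known, so the test is no separate support for its being apart. The count was 284 without siCon number 2 and 265 without siCon number 3. Of the 170 genes of the blocked fit 24 were among the 441, and of the 22 genes of the unblocked fit 1 was.

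Cytokines and chemokines led the side that was higher in number 1. Il6 had 10.24, 4.28 and 4.63 in siCon_IFNg, against 6.73, 4.32 and 4.48 in siCon, so it was below background on arrays 2 and 3 of both groups and highest on treated array 1. Ccl20, a chemokine of T helper 17 cells, had 11.78, 6.34 and 6.40 in siCon_IFNg and 7.74, 7.48 and 7.51 in siCon. It was about 4 units higher with interferon-γ in number 1 and about 1 unit lower in numbers 2 and 3. Cxcl2, which attracts neutrophils, had 11.48, 5.82 and 5.73 in siCon_IFNg and 7.19, 6.16 and 5.69 in siCon, and Cd83, a marker of activated antigen-presenting cells, 11.29, 7.46 and 7.54 in siCon_IFNg and 8.48, 7.80 and 7.80 in siCon.

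The side lower in number 1 held genes that were clearly higher with interferon-γ in numbers 2 and 3. Acot1, an acyl-CoA thioesterase, had 4.49, 10.24 and 9.99 in siCon_IFNg, against 5.01, 5.07 and 4.93 in siCon, so it was below background on every array except treated arrays 2 and 3. Ifgga4l had 7.98, 11.15 and 10.47 in siCon_IFNg and 7.59, 4.90 and 4.10 in siCon, and Sectm1b 6.03, 9.96 and 9.77 in siCon_IFNg and 6.23, 5.28 and 5.32 in siCon. Ubd, a ubiquitin-like modifier, had 6.12, 7.91 and 6.31 in siCon_IFNg and 5.72, 2.57 and 2.67 in siCon, with untreated arrays 2 and 3 below background. Ifgga4l and Ubd were above background on untreated array 1, whereas Acot1 was low on both arrays numbered 1.

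Astrocyte markers were high in both groups, and markers of other cells were present too. The 13 measured astrocyte markers had medians of 10.78, 10.53 and 10.55 in siCon_IFNg, against 10.63, 10.67 and 10.64 in siCon. Of these 13, 0 passed by limma in any of the 3 fits (0 at an unadjusted p under 0.05 in the unblocked and blocked fits, 2 lower without number 1), and Gfap differed by 0.02 ± 0.13 (SE, adjusted p = 1). The 19 microglia and myeloid markers had medians of 8.88, 8.68 and 8.64 in siCon_IFNg, against 9.44, 8.83 and 8.59 in siCon. They were lower in number 1 (median -0.43) and near 0 in the others (-0.11 and 0.07), and Gpr34 was the 1 that passed in each of the 3 fits. Csf1r, the receptor that keeps microglia alive, had 8.87, 9.14 and 9.32 in siCon_IFNg and 9.47, 9.46 and 9.26 in siCon, and Cx3cr1 differed by -1.24, -0.69 and -0.16. The part of microglia in the results was not tested.

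**Figure D5:**
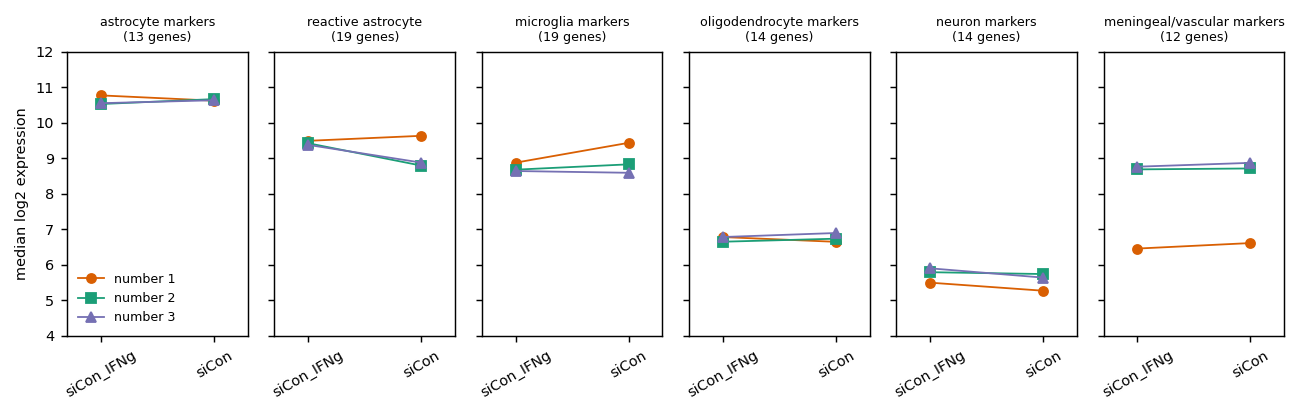
Median log2 expression of 6 marker lists on each array, siCon_IFNg left of siCon, with lines joining the arrays of 1 title number. Astrocyte markers lie between 10.53 and 10.78 on all 6 arrays, microglia markers between 8.59 and 9.44, and meningeal and vascular markers lie lower on both arrays numbered 1.

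Reactive astrocyte genes were 19 in number, with a median of 0.30. S1pr3 rose in the unblocked fit, S1pr3 and Steap4, a metalloreductase, in the blocked fit (0.84 ± 0.14 for Steap4, SE, adjusted p = 0.023), and 7 rose without number 1 while Tm4sf1, a membrane protein, fell (-0.41). Serpina3n, a protease inhibitor of reactive glia, had 8.57, 9.46 and 9.38 in siCon_IFNg, against 8.82, 7.55 and 7.53 in siCon, with untreated array 1 at about the level of treated array 1. Ptx3, a soluble pattern recognition protein, had 7.32, 7.65 and 7.60 in siCon_IFNg and 5.92, 5.44 and 5.79 in siCon, without overlap, and passed without number 1 (2.01, adjusted p = 0.00456).

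Among 14 oligodendrocyte and 14 neuron markers 0 passed by limma in the unblocked or blocked fit (0 and 1 at an unadjusted p under 0.05 in the unblocked one). Tubb3, a neuronal tubulin, had 4.83, 6.51 and 6.56 in siCon_IFNg, against 4.69, 4.48 and 4.80 in siCon, so it was above background on treated arrays 2 and 3 alone and passed without number 1 (1.90, adjusted p = 1.89e-04). That difference uses untreated values below background, and over the 3 numbers Tubb3 was at least 1.54-fold higher. Of 12 meningeal, fibroblast and vascular markers 0 passed by limma in the unblocked or blocked fit (1 lower at an unadjusted p under 0.05), and Pdgfrb, a pericyte receptor, fell without number 1 (-0.61).

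Nr0b2, which encodes the nuclear receptor SHP, the target of the series' other siRNA, was below background in both groups, with 4.72, 5.09 and 4.59 in siCon_IFNg and 4.82, 5.05 and 5.01 in siCon. Of 11 nuclear receptor and corepressor genes linked to it Ppard rose in the blocked fit, with 8.95, 9.58 and 9.56 in siCon_IFNg, against 8.49, 8.36 and 8.35 in siCon (adjusted p = 0.0303), and Ppara fell without number 1 (-0.50). Both encode lipid-sensing receptors of the PPAR family. Over 14 ribosomal protein genes the median was -0.07, and 0 passed by limma in any of the 3 fits (0, 1 lower and 1 lower at an unadjusted p under 0.05 in the unblocked fit, the blocked fit and the one without number 1).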

How the data were processed

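RNA was isolated with Trizol, and biotin-labelled cDNA was hybridised to whole-transcript arrays, per the labels' protocols. The authors deposited 1 table of log2 values for 36685 rows and 12 arrays; background correction, summarisation and normalization are not given in the sources used here. Values ran from 1.01 to 13.43, from which log base 2 was taken. Of the rows 18511 had 1 gene in the probe annotation, 575 several and 17599 none; 18394 matched RefSeq GRCr8 by Entrez ID, which changed 0 symbols. For 291 genes with several rows the one with the highest mean was kept, leaving 18166 genes, with no filter on dim ones. Array medians over these genes were 6.49 to 6.58. Background was the 95th percentile, 5.34, of the means of 1344 olfactory and vomeronasal receptor genes, and 12433 genes lay above it. Where every array of a group lay below it, a fold is given only as "at least", against that level or the array's own value if higher. Log2 differences are given as computed, also where values lay below background. Precision is limited by the number of arrays.

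Groups and numbers came from the titles. Group means over the 12 arrays were fitted by lmFit, contrasts.fit and eBayes of limma 3.58.1 (R 4.3.3), with Benjamini-Hochberg adjustment over all genes and a threshold of 0.05. The design fixed this unblocked fit as the main one. Same-numbered arrays of different groups deviated together (r of 0.426 to 0.771), which met the rule for reading the numbers as paired. Numbers 2 and 3 correlated as much with each other (0.419 to 0.584), so the values set apart number 1 and do not tell 2 from 3. The fit with replicate number as a block is printed beside results it changes. Number 1 was also compared with numbers 2 and 3 by a fit of 8 means, chosen because earlier results of these data had set number 1 apart. Alternatives covered the block, the arrays used, centring, quantile normalization, dim genes, several rows per gene and the variance prior.

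The 31 gene lists and their genes (461 measured memberships) were chosen with earlier results of these data known, so list counts are descriptions and were not tested. Genes were named by rule: all that passed in the unblocked fit, per list, up to 4 with the lowest p and 3 with the greatest difference, the 15 largest rises and falls in the blocked fit, the 8 largest differences of number 1 in each direction, and 38 fixed genes. Of 192 such genes the text names a part. Ackr3, Btg1, Ccl3, Gbp4, Nog, Slfn2, Stat5b, Steap4, Tlr3, Tm4sf1 and Ulk1 were named after their values were seen. Promoter windows and miRNA sequences are from RefSeq, GRCr8. Figures were drawn with matplotlib 3.10.9.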

Additional observations from a re-analysis of the deposited data

Results flagged for a closer look

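The effect of interferon-γ differed between number 1 and numbers 2 and 3 for 441 genes, by a test of the difference itself (limma, adjusted p under 0.05), with 1 array per group in number 1. The 8 genes with the largest positive difference of number 1 minus numbers 2 and 3 were Ccl20 (5.16), Cxcl2 (4.44), Rtp3 (3.55), Il6 (3.46), Ifnb1 (3.41), Cd83 (3.11), Tnfsf18 (3.03) and Cxcr5 (2.95). Rtp3, of a family that carries receptors to the cell surface, had 11.19, 4.97 and 5.25 in siCon_IFNg, against 7.34, 4.62 and 5.01 in siCon. Tnfsf18, the ligand of GITR on T cells, and Cxcr5, a chemokine receptor of B cells, were above background on treated array 1 alone (7.25, 3.99 and 4.47 in siCon_IFNg and 4.05, 4.10 and 4.03 in siCon for Tnfsf18, and 7.71, 4.51 and 4.70 in siCon_IFNg and 4.65, 4.73 and 4.26 in siCon for Cxcr5).

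The 8 largest negative ones were Ifgga4l (-5.92), Acot1 (-5.64), Sectm1b (-4.76), Cd274 (-4.43), Ubd (-4.08), Cxcl9 (-3.92), Ifit3 (-3.46) and Cxcl11 (-3.28). All siCon values of Acot1, Ifnb1, Tnfsf18 and Cxcr5 lay below background, so the sizes given for these genes rest in part on such values. Ifit3, an antiviral partner of Ifit2, had 10.49, 9.40 and 9.08 in siCon_IFNg, against 10.18, 5.95 and 4.99 in siCon, so untreated array 1 was nearly as high as treated array 1. Microglia markers differed by a median of -0.43 in number 1, against -0.11 and 0.07 in numbers 2 and 3, and their part in these differences was not tested.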

How the results depend on the processing

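Under 10 settings that left out no array of either group, every gene named in the text kept its direction. Only centring, quantile normalization and row means could move a difference. The blocks, the 6 arrays, bright genes only and the variance prior change the spread or the genes tested, so no sign could turn there. The count of 22 changed genes became 170 with title number as a fixed replicate block, 94 as a random replicate block (correlation 0.353), 232 with a batch block that separates number 1, and 7 with only the 6 arrays of these groups (18 with the replicate block there, 5 of them among the 22). It was 15 after centring, 22 after quantile normalization or with row means, and 25 with bright genes only or with a trended robust prior. Leaving out arrays it ranged from 0 to 856. The count of list genes changed, 14, became 47, 29, 56 and 4 under the fixed block, random block, number 1 block and 6 arrays, 9 after centring, and 0 to 147 when arrays were left out. Of the 22 genes, 18 lost the call with 6 arrays only, 7 after centring and Socs2 also after quantile normalization. The 441 genes of number 1 became 209 with the 6 arrays and 730 with a trended robust prior, and 265 to 382 when arrays were left out. The fixed block removed no call of the 22.

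Differences changed sign only when arrays were left out, over ranges of -0.042 to 2.23 for Acod1, -0.072 to 0.29 for B2m, -0.26 to 1.28 for Bmp2, -1.20 to 1.52 for Ccl20, -2.14 to 0.85 for Ccl3, -0.50 to 0.10 for Cd55, -0.56 to 0.45 for Cd74, -0.53 to 1.39 for Cd83, -0.029 to 1.26 for Cfb, -0.57 to 2.30 for Cxcl2, -0.075 to 0.11 for Gfap, -0.12 to 1.69 for Ifnb1, -0.73 to 2.25 for Il6 and -0.54 to 2.57 for Rtp3. None of these 14 passed over the 12 arrays. The cause of the changes was not tested.

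The limits are the 3 arrays a group, the separate number 1, replicates not said to be separate cultures, and values whose normalization is not given. Mixed cells and dim genes near background limit what can be assigned to astrocytes.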

Other observations

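Values of 5 further genes follow. Egr2, an early response factor, had 8.85, 6.90 and 6.61 in siCon_IFNg, against 7.48, 5.14 and 4.86 in siCon. Both arrays numbered 1 were higher and the groups overlapped, and the differences of 1.36, 1.76 and 1.76 were of like size (limma adjusted p = 0.203 with the block, and 0.00509 without number 1). Zc3hav1, which binds CpG-rich viral RNA, had 9.96, 10.32 and 10.13 in siCon_IFNg and 9.51, 9.01 and 8.97 in siCon, without overlap (blocked adjusted p = 0.0537). Acod1, which makes itaconate in activated myeloid cells, had 9.66, 5.51 and 5.11 in siCon_IFNg and 6.91, 4.73 and 4.42 in siCon, with treated array 1 more than 4 units above the others of its group. Bmp2, a ligand of the BMP family, had 9.37, 6.29 and 6.38 in siCon_IFNg and 6.97, 6.33 and 6.50 in siCon, so that treated array 1 alone stood out, and number 1 differed from numbers 2 and 3 by 2.48 (adjusted p = 8.91e-04). Tprn, the gene of taperin, fell in the blocked fit, with 6.97, 5.98 and 5.89 in siCon_IFNg and 7.56, 7.20 and 7.14 in siCon (adjusted p = 0.0117).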
